A study of Homo sapiens with 4 samples.

Results

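The RAS-RAF-MEK-ERK cascade was followed here through 6 of its genes, NRAS, HRAS, BRAF, MAP2K1, MAP2K2 and MAPK3, taken by gene symbol from 22187 genes in all. The libraries come from 2 human multiple myeloma cell lines, KMS18 and KMS28BM, which both carry t(4;14), a translocation that brings NSD2 and FGFR3 next to the immunoglobulin heavy chain locus. Each line gave 1 library from cells with a stable knockdown of PKCα, the kinase encoded by PRKCA, and 1 library from cells with a luciferase control construct, 4 libraries in total. The labels do not say whether a knockdown line is a clone or a pool, and they do not give the knockdown sequence. The series asks what lower PKCα does to transcript levels in t(4;14) cells.

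RAS proteins are small GTPases at the plasma membrane that are switched on by exchange factors and switched off by GTPase-activating proteins. In the active state they recruit RAF kinases such as BRAF, which phosphorylate the MEK kinases, and these phosphorylate the ERK kinases, which act on cytoplasmic and nuclear targets. Myeloma cells often carry activating changes in RAS genes, and conventional PKC enzymes can feed into the cascade through RASGRP exchange factors and RAF.

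The libraries held between 37940949 and 39507281 expected counts, the authors' estimated number of fragments per gene. All 6 genes were listed in every library and all 6 passed the filter on low counts. Of 10 plasma cell markers, 9 reached 1 FPKM (fragments scaled to transcript length and library size) in every library and CD27 was at 0 in all 4. The summed level of that list was 6600 FPKM in the knockdown and 7690 FPKM in the control library of KMS18, and 7930 and 8660 FPKM in those of KMS28BM. In the test over both lines that is described below, 6 of its 9 tested genes were called lower with the knockdown (SDC1, TNFRSF17, SLAMF7, IRF4, XBP1 and MZB1) and CD38 was called higher, with a median log2 difference of -0.68 (edgeR, where 5.25% of all genes were called lower and 3.57% higher). With total count scaling 5 of them were called lower, without IRF4, and 4 were called lower without a filter. With limma at a pseudocount of 0.1, with limma without a filter and without the cell line block, 0 were called lower. CD38 was not called without a filter, with any limma setting or without the block. Of 6 T and NK cell markers, CD3E alone reached 1 FPKM. The summed level of these 6 was 22.6 FPKM in the knockdown library and 8.90 FPKM in the control library of KMS18, and 3.50 and 1.33 FPKM in those of KMS28BM. The part of either marker list in the results below was not tested. PRKCA, the target, had 1.47 FPKM in the knockdown and 7.46 FPKM in the control library of KMS18. In KMS28BM it had 2.43 FPKM in the knockdown and 10.86 FPKM in the control library. In both lines the target was thus lower in the library labelled as the knockdown.

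NRAS is the member whose transcript differed most between knockdown and control cells. Its 3′ untranslated region (UTR) holds a sequence of 8 bases, CAGTCTAA. Among genes called lower with the knockdown that have an annotated 3′ UTR, 87 carried it and 671 did not. The 8 bases CAGTCTAA and their core AGTCTA had been picked out by an earlier search of these same data, made after the lower genes were known. Their presence in a cascade gene and the shares of lower genes given below are therefore a description and not independent evidence. In the GENCODE 29 transcripts (GRCh38), searched on the transcript strand, the longer form occurred once in the NRAS 3′ UTR and the core occurred once more. Among the other members the core occurred in 1 BRAF transcript, and neither form was found in the annotated 3′ UTRs of HRAS, MAP2K1, MAP2K2 or MAPK3. The windows of 30 bases around each match are shown 5′ to 3′ on the transcript strand, with the match in capitals.
NRAS, longer form: gtttctttgagCAGTCTAAtgtgccacaca
NRAS, core: tactgaattttgAGTCTAtcctagtcttca
BRAF, core: atttggtggcaaAGTCTAtattccttaact
The first window lies at chr1:114704872-114704901 on the minus strand, with the match starting at base 3204 of a 3′ UTR of 3625 bases (ENST00000369535.4). The second lies at chr1:114707492-114707521, with the match starting at base 585 of the same UTR. The BRAF window lies at chr7:140834432-140834461 on the minus strand, in a 3′ UTR of 622 bases that belongs to the short transcript ENST00000469930.2. The 4 other BRAF transcripts with an annotated 3′ UTR hold no match. Among all 12972 tested genes with an annotated 3′ UTR, 333 (2.57%) held CAGTCTAA, of which 26.1% were lower with the knockdown, against 5.31% of the genes without it. The core was in 25.2% of these genes, of which 12.5% were lower, against 3.61% of the rest. The length of the 3′ UTRs was not taken into account in these shares.

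NRAS (ENSG00000213281, chromosome 1, 114704469 to 114716894, minus strand, GRCh38) encodes the RAS protein N-Ras. It had 17.9 FPKM in the knockdown and 47.81 FPKM in the control library of KMS18. In KMS28BM it had 13.16 FPKM in the knockdown and 28.23 FPKM in the control library. Both knockdown libraries lay below both control libraries. The share of all genes with this order was not counted, so the order is a description only. Over both lines NRAS fell to 39.8% of the control level, a log2 difference of -1.33 ± 0.11 (SE, quasi-likelihood test in edgeR with adjusted p = 0.00345). The SE was derived from the log2 difference and the test statistic of the edgeR fit. It rests on the agreement of the 2 lines together with variance shared across genes, so it is not a plain spread over the 2 lines. NRAS was lower in 2 of 2 lines. Each library is RNA from a whole culture, so less RNA per cell and fewer cells holding the transcript cannot be told apart. Without the line as a block, or with limma and other filters or pseudocounts, the value kept its sign but missed the threshold, as given in the closing section.

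Within a line there was 1 library per construct, so sizes were read without a test. The expected counts of NRAS were 3001 in the knockdown and 8020 in the control library of KMS18, a log2 ratio of -1.48 after TMM scaling (95% interval -1.54 to -1.42, counting error only). They were 2274 in the knockdown and 4919 in the control library of KMS28BM, a log2 ratio of -1.18 (-1.25 to -1.10). The ratio was larger in size in KMS18 by more than counting error, with a difference between lines of 0.30 (KMS28BM minus KMS18, 0.21 to 0.39). On the log2(FPKM + 1) scale, which understates the change of low genes, the differences were -1.37 in KMS18 and -1.05 in KMS28BM. In each line NRAS was the single member lower by 1 or more on this scale. In KMS18 0.647% of 11742 genes at 1 FPKM or more in either library were that much lower, and in KMS28BM 0.751% of 11455. In the fit over both lines 0.679% of the 14870 genes tested had a lower log2 difference than NRAS.

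**Figure D1:**
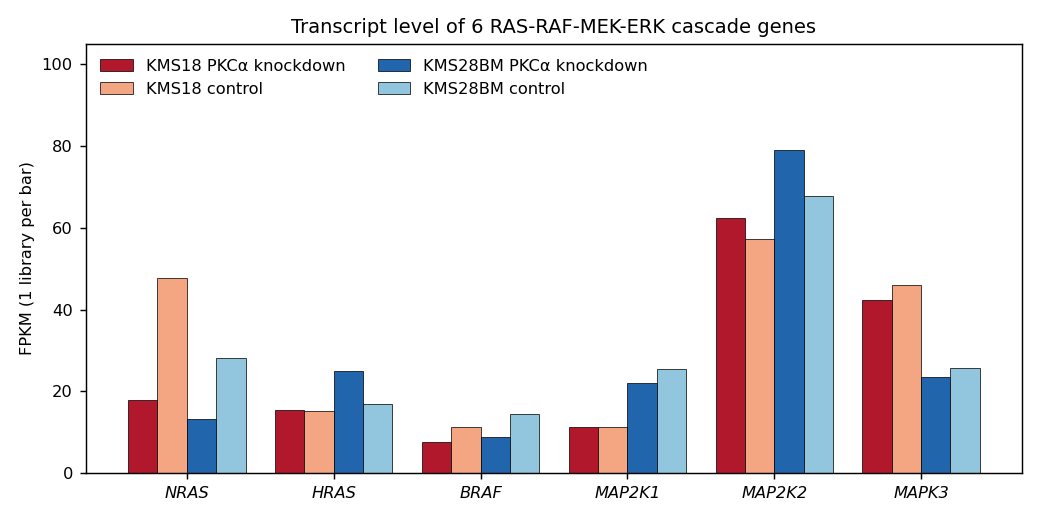
Level of the 6 cascade genes in each library, in FPKM on the vertical axis, with 1 bar per library and so no error bar. NRAS stands at 17.9 and 13.16 FPKM in the knockdown libraries and at 47.81 and 28.23 FPKM in the control libraries, while MAP2K1 and MAPK3 separate by line.

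HRAS (ENSG00000174775, chromosome 11, 532242 to 537287, minus strand), which encodes the related GTPase H-Ras, did not follow NRAS. It had 15.51 FPKM in the knockdown and 15.12 FPKM in the control library of KMS18, and 25.03 FPKM in the knockdown and 16.8 FPKM in the control library of KMS28BM. The KMS28BM knockdown library stood above the 3 others, which lay close together. Over both lines the log2 difference was 0.18 ± 0.17 (SE), which edgeR did not call (adjusted p = 0.557). The count ratio was below 0 in KMS18, at -0.11 (-0.29 to 0.07), and above it in KMS28BM, at 0.45 (0.30 to 0.60). The difference between the lines was 0.56 (0.33 to 0.79, counting error only). In KMS18 the sign depends on the measure, since the FPKM difference was 0.03 on the log2(FPKM + 1) scale.

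The files list HRAS under 2 identifiers, whose values were summed. The second, ENSG00000276536, is not among the genes of the GENCODE 29 primary annotation. It held 10.34 FPKM in the knockdown and 10.94 FPKM in the control library of KMS18, and 17.22 FPKM in the knockdown and 12.98 FPKM in the control library of KMS28BM. The first held 5.17 and 4.18 FPKM in the same libraries of KMS18, and 7.81 and 3.82 FPKM in those of KMS28BM. Reads could be split between such copies, so the sum is the steadier value and each identifier alone is uncertain.

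The make-up of the measured RAS transcripts differed between constructs. NRAS made up 53.6% of the summed NRAS and HRAS FPKM in the knockdown and 76.0% in the control library of KMS18. In KMS28BM it made up 34.5% in the knockdown and 62.7% in the control library, so that HRAS was the more abundant of the pair, per length, in the KMS28BM knockdown library alone. The summed level of the pair was 33.4 FPKM in the knockdown and 62.9 FPKM in the control library of KMS18, and 38.2 FPKM in the knockdown and 45.0 FPKM in the control library of KMS28BM. Counted as fragments and not per length, the NRAS share was 85.3% in the knockdown and 93.7% in the control library of KMS18, and 71.9% and 88.8% in those of KMS28BM.

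**Figure D2:**
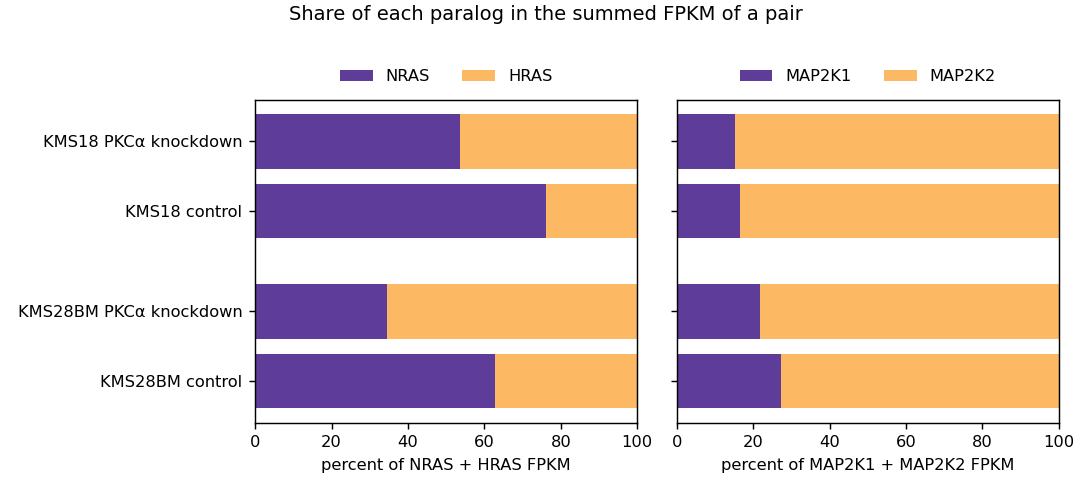
Share of each gene in the summed FPKM of a pair, in percent on the horizontal axis, with 1 bar per library; NRAS with HRAS on the left and MAP2K1 with MAP2K2 on the right. The NRAS share is 53.6% and 34.5% in the knockdown libraries and 76.0% and 62.7% in the control libraries, and MAP2K1 holds between 15.2% and 27.2% of its pair.

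BRAF (ENSG00000157764, chromosome 7, 140719327 to 140924928, minus strand) encodes the RAF kinase that active RAS recruits. It had 7.63 FPKM in the knockdown and 11.15 FPKM in the control library of KMS18, and 8.88 FPKM in the knockdown and 14.3 FPKM in the control library of KMS28BM. Both knockdown libraries again lay below both control libraries, with the same limit as for NRAS. Over both lines BRAF fell to 70.3% of the control level (log2 difference -0.51 ± 0.10, SE; edgeR, adjusted p = 0.0265, lower in 2 of 2 lines). The count ratios were -0.53 (-0.62 to -0.44) in KMS18 and -0.49 (-0.57 to -0.41) in KMS28BM, and the difference between lines was 0.04 with an interval of -0.09 to 0.16. The BRAF call was lost when libraries were scaled by total count (edgeR, adjusted p = 0.0575), under no filter (0.0710), without the line block (1.0) and under the 3 limma settings (0.0545 to 0.249).

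The files list a transcript length for each gene in each library, which FPKM divides by. For BRAF it was 5878 bases in the knockdown and 5560 bases in the control library of KMS18, and 6127 bases in the knockdown and 5078 bases in the control library of KMS28BM. For NRAS it was 4449 bases in all 4 libraries. The BRAF counts themselves were lower in the knockdown libraries, with 1695 against 2343 in the control library of KMS18 and 2119 against 2849 in that of KMS28BM. BRAF overlaps NDUFB2 and RNU6-85P on the other strand and has a pseudogene, BRAFP1. The library kit named in the labels does not keep strand, so reads from the overlap cannot be assigned.

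MAP2K1 and MAP2K2 encode the kinases MEK1 and MEK2, which phosphorylate ERK. MAP2K1 (ENSG00000169032, chromosome 15, 66386817 to 66492312, plus strand) had 11.19 FPKM in the knockdown and 11.29 FPKM in the control library of KMS18, and 22.02 FPKM in the knockdown and 25.36 FPKM in the control library of KMS28BM. Its levels separated by line and not by construct. The knockdown difference was -0.17 ± 0.11 (log2, SE; edgeR, adjusted p = 0.382), with count ratios of -0.08 (-0.21 to 0.04) in KMS18 and -0.25 (-0.33 to -0.16) in KMS28BM. The gene overlaps SNAPC5 and other genes on the opposite strand, with the same limit as for BRAF.

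MAP2K2 (ENSG00000126934, chromosome 19, 4090321 to 4124129, minus strand) was the most abundant of the 6 in every library. It had 62.32 FPKM in the knockdown and 57.31 FPKM in the control library of KMS18, and 78.98 FPKM in the knockdown and 67.8 FPKM in the control library of KMS28BM. The knockdown library was the higher of the pair in each line, by count ratios of 0.14 (0.07 to 0.21) and 0.18 (0.12 to 0.24), beyond counting error. The test over both lines did not call this (log2 difference 0.16 ± 0.09, SE; edgeR, adjusted p = 0.324). MAP2K1 made up 15.2% of the pair's FPKM in the knockdown and 16.5% in the control library of KMS18, and 21.8% in the knockdown and 27.2% in the control library of KMS28BM.

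MAPK3 (ENSG00000102882, chromosome 16, 30114105 to 30123506, minus strand) encodes ERK1, the kinase at the end of the cascade. It had 42.22 FPKM in the knockdown and 46.03 FPKM in the control library of KMS18, and 23.49 FPKM in the knockdown and 25.79 FPKM in the control library of KMS28BM. The lines stood well apart and the constructs lay close together within each. The knockdown difference was -0.19 ± 0.10 (log2, SE; edgeR, adjusted p = 0.273), with count ratios of -0.17 (-0.24 to -0.09) in KMS18 and -0.21 (-0.31 to -0.11) in KMS28BM.

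**Figure D3:**
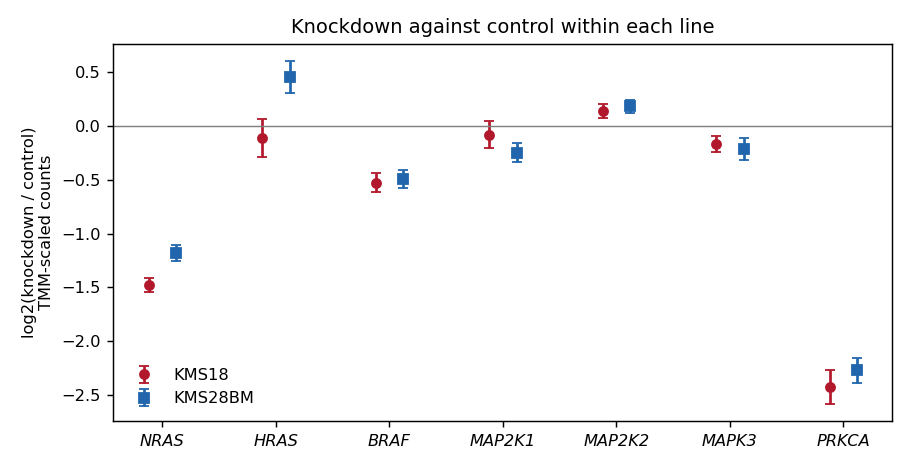
Log2 ratio of TMM-scaled counts, knockdown over control, for the 6 genes and the target PRKCA in KMS18 (circles) and KMS28BM (squares), with bars for the exact 95% interval of counting error. NRAS lies at -1.48 and -1.18, BRAF at -0.53 and -0.49, and the HRAS points lie on either side of 0, at -0.11 and 0.45.

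Of the 6 members, 2 fell (NRAS and BRAF) and 0 rose in the test over both lines, where 5.25% of 14870 genes were called lower and 3.57% higher. DESeq2 and 3 other edgeR settings also called both, and the remaining settings called NRAS alone or neither. At an unadjusted p under 0.05 no member was higher either, the values for HRAS and MAP2K2 being 0.323 and 0.126. The median log2 difference of the 6 was -0.18, against 0.02 over all genes tested. Plasma cell markers were lower in the same comparison, with a median of -0.68 over 9 genes, and their part in the NRAS and BRAF differences was not tested. Of the 1312 calls 59.5% were lower, while 45.9% of 887 were lower with total count scaling and 47.6% of 490 with limma on log2(FPKM + 1). The levels kept MAP2K2 at the top and BRAF at the bottom in all 4 libraries. NRAS was second in both control libraries, lower in rank, at 3, in the KMS18 knockdown library and at 5 in the KMS28BM knockdown library. With 1 library per group the spread between cultures is unknown, and neighbours such as NRAS and MAPK3 (47.81 and 46.03 FPKM) or MAP2K1 and BRAF (11.29 and 11.15 FPKM) in the KMS18 control library are not ordered firmly.

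The same fit compared the lines, KMS28BM with KMS18, over both constructs. MAP2K1 was higher in KMS28BM by 0.90 on the log2 scale (edgeR, adjusted p = 0.000393). MAPK3 was lower in KMS28BM, with a log2 difference of -0.93 (edgeR, adjusted p = 0.000206), and so was NRAS, with -0.69 (edgeR, adjusted p = 0.00144). The 2 constructs gave the same direction for all 3 genes. HRAS (log2 difference 0.37, edgeR adjusted p = 0.0934), BRAF (0.17, adjusted p = 0.168) and MAP2K2 (0.20, adjusted p = 0.0993) did not pass. Thus 1 member was higher and 2 were lower in KMS28BM, in a comparison where 30.6% of all genes were called higher and 32.3% lower. For NRAS the line difference was -0.54 between the knockdown libraries and -0.84 between the control libraries.

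Upstream of RAS, 15 of 17 listed activators and adaptors were tested, of which 1 rose and 3 fell (edgeR), with a median log2 difference of -0.14. For this and the lists that follow, 3.57% of all genes were called higher and 5.25% lower, with a median of 0.02, and a count of 1 in a list of this size is near those shares. RASGRP3, a RAS exchange factor that binds diacylglycerol, had 70.23 FPKM in the knockdown and 114.5 FPKM in the control library of KMS18, and 18.07 FPKM in the knockdown and 27.88 FPKM in the control library of KMS28BM. In log2 units it fell by 0.69 with an SE of 0.09 (edgeR, adjusted p = 0.0104). GAB1, a docking adaptor below receptor tyrosine kinases, fell by 0.66 (edgeR, adjusted p = 0.0153), and SOS1, the exchange factor that GRB2 brings to receptors, fell by 0.49 (edgeR, adjusted p = 0.0377). FRS2, the adaptor of FGF receptors, rose, with 3.83 FPKM in the knockdown and 2.31 FPKM in the control library of KMS18 and 2.54 and 1.06 FPKM in those of KMS28BM (log2 difference 0.84; edgeR, adjusted p = 0.0337).

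Among the GTPase-activating proteins that switch RAS off, 9 of 10 were tested, 2 rose and 0 fell, with a median of -0.15. RASAL3 had 34.29 FPKM in the knockdown and 22.8 FPKM in the control library of KMS18, and 19.21 FPKM in the knockdown and 14.61 FPKM in the control library of KMS28BM (log2 difference 0.43; edgeR, adjusted p = 0.0496). RASA4 rose by 0.70 (edgeR, adjusted p = 0.0445), but in KMS18 its FPKM was 14.88 in the knockdown and 14.79 in the control library. RASA4 has a near-identical copy, so its counts are uncertain. None of the 9 genes of RAS lipid modification and trafficking, which place RAS at the membrane, was called in the edgeR test. ZDHHC9, a subunit of the RAS palmitoyltransferase, differed by -0.48 in log2 units and was not called (edgeR, adjusted p = 0.0899).

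Of 22 scaffolds and brakes of the cascade 0 rose and 1 fell, or 4.55% called against 5.25% of all genes called lower, with a median of -0.18. This was HSP90AA1, a chaperone of RAF kinases, with 377.1 FPKM in the knockdown and 586.2 FPKM in the control library of KMS18, and 338.0 and 416.4 FPKM in those of KMS28BM (log2 difference -0.53; edgeR, adjusted p = 0.0443). HSP90AA1 has pseudogenes that could share its reads. SHOC2, part of a phosphatase complex that activates RAF, did not pass (-0.40; edgeR, adjusted p = 0.0810). In the other direction PPP1CC, of the same list, did not pass either (0.32, edgeR adjusted p = 0.0829). Of 12 ERK phosphatases tested, 0 rose and 1 fell, or 8.33% against the same 5.25%, with a median of 0.02. PPP2CB, a catalytic subunit of protein phosphatase 2A, had 4.84 FPKM in the knockdown and 11.52 FPKM in the control library of KMS18, and 8.24 FPKM in the knockdown and 12.62 FPKM in the control library of KMS28BM (log2 difference -1.01; edgeR, adjusted p = 0.0143). The phosphatase gene DUSP5 was higher and not called (0.58, edgeR adjusted p = 0.0829). The 3′ UTRs of GAB1 and PPP2CB also hold CAGTCTAA, as do those of CRKL, RASAL2, CNKSR2 and MAP3K7, which were not called. The log2 differences of these uncalled genes were -0.32, -0.19, -0.49 and 0.07. Of the other genes called lower, SOS1, RPS6KA3, ELK4 and PRKCA held the core AGTCTA, and RASGRP3, HSP90AA1 and ETS1 did not. RASA4, called higher, and further uncalled genes of the lists held the core too.

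Downstream of ERK, 18 of 20 substrates and output genes were tested, 2 rose and 3 fell, with a median of -0.07. BCL2L11, which encodes the death protein BIM that ERK marks for degradation, had 26.76 FPKM in the knockdown and 18.44 FPKM in the control library of KMS18, and 28.19 FPKM in the knockdown and 15.23 FPKM in the control library of KMS28BM. It rose by 0.71 (SE 0.10; edgeR, adjusted p = 0.0125). MKNK2, a kinase that ERK activates, rose by 0.45 (edgeR, adjusted p = 0.0439). ELK4, a ternary complex factor, fell by 0.66 (edgeR, adjusted p = 0.0138), the kinase gene RPS6KA3 by 0.45 (edgeR, adjusted p = 0.0346) and the transcription factor gene ETS1 by 0.60 (edgeR, adjusted p = 0.0473). ETV5, often read as an output of ERK, had 2.79 FPKM in the knockdown and 14.13 FPKM in the control library of KMS18 but 9.06 and 10.95 FPKM in those of KMS28BM. It did not pass over both lines (edgeR, adjusted p = 0.104).

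In the parallel MAP kinase cascades, which lead to JNK, p38 and ERK5, 19 genes were tested, 2 rose and 0 fell, with a median of 0.07. MAP3K11 rose by 0.60 (edgeR, adjusted p = 0.0198) and MAP2K7, which activates JNK, by 0.52 (edgeR, adjusted p = 0.0339). MAP3K3 (0.52, edgeR adjusted p = 0.0562) and MAPK8 (-0.41, edgeR adjusted p = 0.0684) did not pass. The 7 lists together had 104 of 110 genes tested, of which 7 rose and 8 fell, with a median of -0.08, where 3.57% of all genes were called higher and 5.25% lower with a median of 0.02. Their 15 calls in the edgeR test became 10 with total count scaling and 2 without a filter. SOS1, RASA4, HSP90AA1, RPS6KA3 and ETS1 were no longer called with total count scaling.

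**Figure D4:**
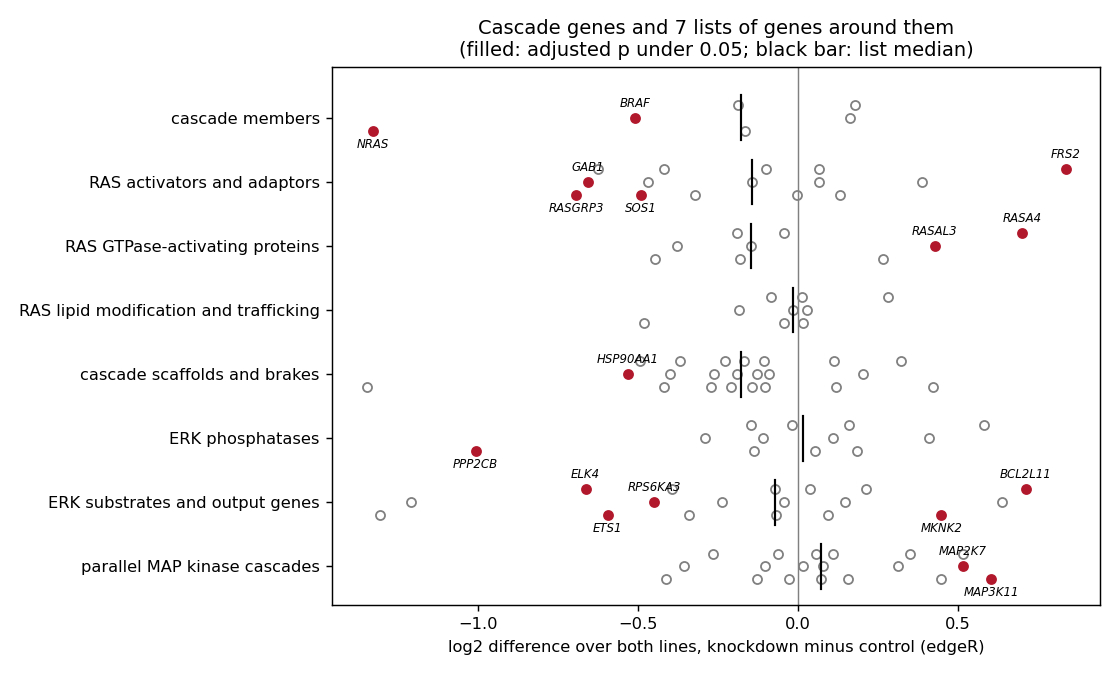
Log2 difference over both lines, knockdown minus control, on the horizontal axis, with 1 point per gene for the cascade members and the 7 named lists. Filled points have an edgeR adjusted p under 0.05 and black bars are list medians; NRAS at -1.33 and BRAF at -0.51 are the called members, BRAF not with total count scaling.

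The genes whose levels over the 4 libraries followed a member most closely were found by the distance between log2(FPKM + 1) profiles, each centred on its mean, among 8648 genes with a mean of 5 FPKM or more. A profile of 4 libraries is short, and the likeness is a description. For NRAS the 3 nearest included RBM38 (distance 0.226) and PM20D2 (0.301). RBM38, an RNA-binding protein gene, had 37.71 FPKM in the knockdown and 81.34 FPKM in the control library of KMS18, and 23.37 and 54.67 FPKM in those of KMS28BM. For BRAF they were FAM60A (0.0466), TGOLN2 (0.0637) and YTHDF3 (0.0695), and for HRAS they were C21orf33 (0.0494), CCDC85B (0.0571) and C7orf43 (0.0592). ALG9, SSBP3 and MRPS5 lay nearest to MAP2K1 (0.0306 to 0.0494), PGGT1B, ISOC2 and C2orf69 to MAP2K2 (0.0298 to 0.0337), and NOP2, PPP2R5A and ZZZ3 to MAPK3 (0.0143 to 0.0344). The distances for NRAS were the longest of the 6 members.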

How the data were processed

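Total RNA of 4 cultures was made into TruSeq RNA libraries, per the labels' protocols. The authors' expected counts (estimated fragments per gene, not always whole) were deposited with FPKM values and a gene length for each gene in each library, per the file headers. STAR, Bowtie2, HISAT, GRCh37 and hg19 are named in the submitters' processing notes, with no step assigned. Which program counted is not stated there. The files carry no coordinates. Positions and 3′ UTRs come from GENCODE 29 on GRCh38, matched by identifier.

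Expected counts and FPKM were summed over the identifiers of a symbol (23844 identifiers, 22187 genes). Counts, rounded to whole numbers, were tested with edgeR 4.0.16 in R 4.3.3 (quasi-likelihood, TMM, default filter with a minimum count of 10, line and construct in the model), adjusted by Benjamini-Hochberg over 14870 genes at 0.05. Line pairs the libraries by design. This left 1 residual degree of freedom, beside 5.85 prior degrees of freedom that come from all genes. A p-value and its SE thus rest on the agreement of the 2 lines and on variance shared across genes. Neither holds an estimate of the variation among cultures. Within a line, log2(FPKM + 1) differences and exact conditional binomial 95% intervals of the count ratio were given, the intervals for counting error only; depth was 37940949 to 39507281 counts. A gene passed the size rule at a log2 difference of 1 in size and 1 FPKM in either library. Alternatives were other scalings and filters, DESeq2 1.42.0, limma 3.58.1 on FPKM, the top identifier and no block. The edgeR fit of knockdown against control alone was also run on simulated counts. These were drawn with the dispersions of the real fit and with set changes that were the same in both lines. The simulation therefore says nothing about the spread among cultures or about the other fits.

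The members, the gene lists, the sequence motif and the naming rule were chosen with earlier results of these data known. The rule names all members, PRKCA, every called gene of a list with 5 or fewer calls and the 3 nearest profiles of each member. ZDHHC9, SHOC2, PPP1CC, DUSP5, MAP3K3, MAPK8, ETV5, DUSP6, JUN and IER2 were named after their values were seen, as were the uncalled genes with CAGTCTAA. A further list around the cascade, 1 marker and 1 near profile were also computed and are not reported here.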

Additional observations from a re-analysis of the deposited data

Results flagged for a closer look

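HRAS moved in opposite directions in the lines on the scaled counts, with log2 ratios of knockdown to control of -0.11 in KMS18 and 0.45 in KMS28BM; the KMS18 interval includes 0 and the FPKM difference there is slightly positive. Among the listed genes, 3 differed in sign between the lines by at least 0.3 in each on the log2(FPKM + 1) scale, a limit chosen after the values were seen. DUSP6, an ERK phosphatase gene that ERK output induces, had -0.61 in KMS18 and 0.32 in KMS28BM. JUN had -0.31 in KMS18 and 0.55 in KMS28BM. IER2 had -0.36 in KMS18 and 0.40 in KMS28BM. These differences between lines were not tested, since each line has 1 library per construct.

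The listed length of BRAF, which entered the comparisons of levels only through FPKM, was longer in the knockdown than in the control library. The excess was 317.7 bases in KMS18 and 1048.9 bases in KMS28BM. Of 16426 identifiers, BRAF included, 2963 in KMS18 and 746 in KMS28BM were longer by at least the same percentage. BRAF was picked for this after its lengths were seen, and the part of the listed length in its FPKM difference was not tested.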

How the results depend on the processing

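With 1 library per construct in each line, the spread between cultures is unknown, and the intervals on low counts are wide. None of the called members, called list genes or PRKCA changed sign under the alternatives run. HRAS, which was not called, had a log2 difference of 0.18 over both lines but -0.11 without the KMS28BM line and 0.45 without the KMS18 line. The balance of calls turned: 59.5% were lower, against 45.9% with total count scaling and 47.6% with limma on log2(FPKM + 1). In the test over both lines 1312 genes were called, against 367 without a filter, 855 with the top identifier per symbol, 490 with limma on log2(FPKM + 1), and 0 with limma at a pseudocount of 0.1, with limma without a filter and without the cell line block. At an unadjusted p under 0.05 those last 3 gave 2977, 3674 and 215 genes, and DESeq2 called 1303. The 2 called members became 1 with total count scaling, without a filter and with limma, and 0 under the other 3. NRAS missed the threshold at -1.25 (limma, pseudocount 0.1), -1.21 (limma, no filter) and -1.36 (no block; edgeR, adjusted p = 1.0), its adjusted p being 0.0921 and 0.249 under the limma settings. BRAF missed it at -0.44 (total count), -0.52 (no filter), -0.56, -0.61 and -0.56 (limma) and -0.51 (no block). Leaving out a line gave -1.48 to -1.18 for NRAS and -0.53 to -0.49 for BRAF. Between lines, limma without a filter called 5847 genes, and NRAS missed the threshold there (-0.58) and without the construct block (-0.75). MAP2K2 passed with total count scaling (0.28). Within lines, 172 genes passed the size rule in KMS18, against 472 with a pseudocount of 0.1 and 449 on scaled counts, and 228 in KMS28BM, against 476 and 478. The NRAS share differed by -22.4 percentage points in KMS18, against -8.4 on counts and -18.0 with the top identifier, and by -28.2 in KMS28BM, against -16.9 and -25.2. Of the called genes of the lists and PRKCA, 93 values under an alternative missed the threshold with the same sign. Such values outnumbered those that still passed. The cause of these changes was not tested. No paired analysis by replicate number was possible because each group has 1 library; the cell line is the block.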
